A study of Mus musculus with 9 samples.

Results

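The contractile proteins that build smooth muscle were followed in 9 genes, which together had 22 probe sets among the 45037 tested on Affymetrix mouse genome arrays. These genes are Acta2, Actg2, Tagln, Cnn1, Myl9, Myh11, Cald1, Tpm1 and Tpm2, out of 18193 genes that the platform annotation named with a single symbol. The list was chosen by gene family, and was selected on the log2 signals of the same 3 groups in so far as earlier results of these arrays were known, so the values of its members are a description and carry no p-value. Every probe set annotated to 1 of these genes was kept, whether its signal was high or low.

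RNA was measured in 3 groups of sorted cells, each with 3 arrays, from interlimb somites of mouse embryos at E9.5. The dissection aimed at the hypaxial part of the dermomyotome. The PAX3FKHR group was GFP positive cells of Pax3 PAX3-FKHR/GFP embryos, in which 1 Pax3 allele expressed the PAX3-FKHR fusion with IRESnlacZ and the other expressed GFP. The GFP+ group was GFP positive cells of Pax3 GFP/+ embryos. The GFP- group was the cells of the dissected tissue that the sorter gated as negative for GFP, and was not limited to dermomyotome cells. Summed blood, heart and lateral mesoderm markers were highest in this group. The labels give no genotype for the GFP- cells, and the study's methods place them in GFP/+ embryos in its comparisons but list wild-type embryos among the hybridized groups. Embryos of 1 genotype were pooled for each sample, the mothers of the screen carried PGK-Cre, which is active in most cells, and the targeted lines were kept on a C57 BL6/DBA2 background. Both GFP positive groups therefore had 1 Pax3 allele replaced by GFP, and the PAX3FKHR cells had no unmodified Pax3 allele. A treatment label names forelimb buds, whereas titles and tissue labels name interlimb somites, and the samples were taken as somites.

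Smooth muscle contracts when myosin, switched on by phosphorylation of its regulatory light chain, pulls on actin filaments that are lined with tropomyosin and held in check by caldesmon and calponin. Many of the genes for these proteins carry CArG boxes, the sites to which serum response factor binds, and the coactivator myocardin drives them through that factor. In the embryo these genes are not confined to smooth muscle, since Acta2 and Tagln are switched on for a time in the early heart and in the skeletal muscle of the myotome. Tropomyosin genes are also used by skeletal muscle, and each makes several protein forms through alternative promoters and splicing.

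The upstream sequences of the member genes were read from a RefSeq promoter table of build GRCm38.p6, which held 6 of the 9 genes. Those of Tagln, Myh11 and Actg2 were not used here. The 3 sequences shown are those of Acta2, the member with the largest difference between groups in 2 of the 3 comparisons, of Myl9, whose window holds a complete CArG box, and of Tpm2, whose levels ordered the groups differently from Acta2. Each runs 5′ to 3′ over the 250 bases before the annotated start, and capitals mark CArG boxes with at most 1 deviation among the 6 central positions and the MCAT motif (CATTCC on either strand), to which TEAD factors bind. They lie at chr19:34255374-34255623 on the minus strand for Acta2, chr2:156775214-156775463 on the plus strand for Myl9 and chr4:43523555-43523804 on the minus strand for Tpm2.
Acta2: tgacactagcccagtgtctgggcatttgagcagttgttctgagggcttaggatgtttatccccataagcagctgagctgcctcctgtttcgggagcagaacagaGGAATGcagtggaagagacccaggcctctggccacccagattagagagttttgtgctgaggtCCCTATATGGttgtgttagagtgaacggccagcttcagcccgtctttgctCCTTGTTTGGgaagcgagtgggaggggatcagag
Myl9: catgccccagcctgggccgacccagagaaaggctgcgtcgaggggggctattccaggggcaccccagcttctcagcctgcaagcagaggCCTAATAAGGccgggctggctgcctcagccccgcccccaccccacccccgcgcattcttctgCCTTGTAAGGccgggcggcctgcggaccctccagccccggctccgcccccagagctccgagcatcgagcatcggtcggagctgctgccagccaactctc
Tpm2: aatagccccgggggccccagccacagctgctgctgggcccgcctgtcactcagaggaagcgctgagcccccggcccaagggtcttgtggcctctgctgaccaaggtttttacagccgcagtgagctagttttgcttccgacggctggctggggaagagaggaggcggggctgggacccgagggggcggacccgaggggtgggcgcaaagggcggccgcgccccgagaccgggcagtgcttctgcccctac

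The Acta2 window held 2 CArG boxes with 1 deviation each, at -84 to -75 and -34 to -25 from the start, and an MCAT motif at -146 to -141. The Myl9 window held a complete CArG box at -161 to -152 and another with 1 deviation at -99 to -90. The Tpm2 window held neither motif, which says only that these letters are not in this window. Of the 6 member genes in the table, only Acta2 and Myl9, 2 of 6, had a CArG box with at most 1 deviation, and 3 of 6 had MCAT (Acta2, Tpm1 and 1 of 2 Cald1 windows). The Cnn1 window held neither. Among the 32851 windows of the same length in the table, 1.47% held a complete CArG box, 8.59% held one with at most 1 deviation and 12.6% held MCAT. The short E-box (CANNTG), to which myogenic factors bind, occurred in 66.2% of all windows, 3 times in that of Acta2, 0 times in that of Myl9 and once in that of Tpm2. The skeletal and cardiac actin genes, Acta1 and Actc1, which are no members, held 3 and 4 CArG boxes with at most 1 deviation. None of these matches was tested for use in these cells.

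Acta2, the smooth muscle alpha-actin, was highest in GFP- cells, lower in GFP+ cells and lowest in the cells with PAX3-FKHR. Its bright probe set (1416454_s_at) read 8.97, 9.10 and 8.91 on the log2 scale in the 3 PAX3FKHR arrays. The GFP+ arrays read 10.17, 10.20 and 10.20, and the GFP- arrays read 10.83, 10.67 and 10.69. The 3 groups did not overlap, and the gap between any pair of groups was wider than the range within either.

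The group means of this probe set were 8.99 ± 0.10, 10.19 ± 0.01 and 10.73 ± 0.09 log2 units (SD, n = 3). Acta2 signal in PAX3FKHR cells was therefore 43.6% of that in GFP+ cells, with a 95% interval of 38.6% to 49.3%, a log2 difference of -1.20 ± 0.08 (SE). Against GFP- cells it was 30.0%, with an interval of 26.5% to 34.1%. GFP+ cells had 68.9% of the GFP- signal, a log2 difference of -0.54 ± 0.05. These arrays read bulk RNA, in which fewer cells that express a gene and less RNA of it per cell cannot be told apart.

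**Figure D1:**
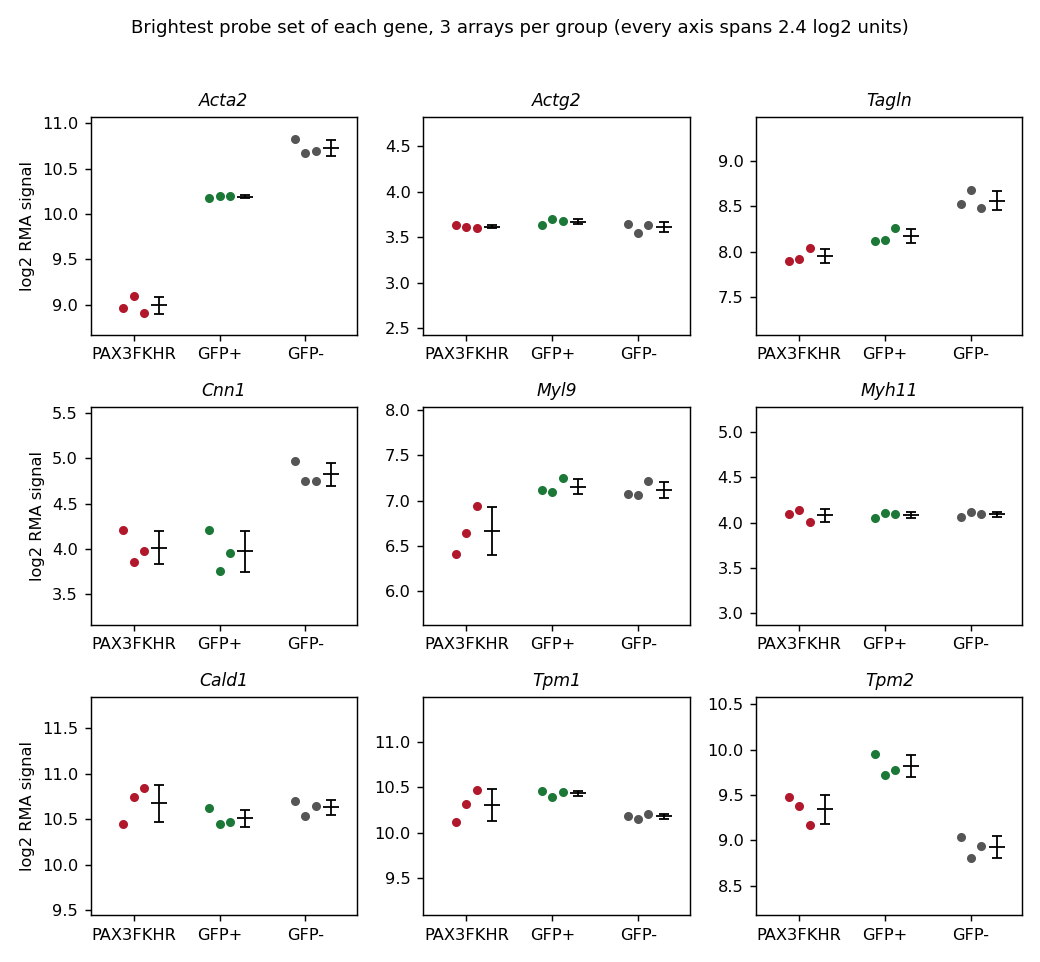
Log2 RMA signal of the brightest probe set of each of the 9 genes in every array, by group, with points for arrays and bars for mean ± SD (n = 3), every axis spanning the same range of log2 units. Acta2 and Tagln step down from GFP- to GFP+ to PAX3FKHR, Tpm2 is highest in GFP+, and Actg2 and Myh11 lie level.

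The other 2 Acta2 probe sets were dim, below the median probe set of the array in all 9 arrays. 1456658_at read 3.19 to 3.26 in PAX3FKHR, 3.37 to 3.55 in GFP+ and 3.22 to 3.29 in GFP- arrays, and 1444105_at read 2.62 to 3.18 over all arrays. Neither had a difference of 0.5 log2 units in any comparison. The statements on Acta2 thus rest on 1 probe set of 3, and its _s_at ending marks probes that can be shared between transcripts.

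Tagln, which encodes the actin-binding protein SM22 alpha, had the same order of groups as Acta2 with smaller steps. Its probe set read 7.89, 7.92 and 8.04 in PAX3FKHR, 8.12, 8.13 and 8.26 in GFP+ and 8.52, 8.68 and 8.48 in GFP- arrays. The groups did not overlap, although the nearest PAX3FKHR and GFP+ arrays lay closer together than the arrays within either of these groups lay apart. The log2 difference was -0.22 ± 0.08 for PAX3FKHR against GFP+ (95% interval -0.40 to -0.04), -0.39 ± 0.07 for GFP+ against GFP- and -0.61 ± 0.08 for PAX3FKHR against GFP-.

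Cnn1, calponin, a brake on actin-activated myosin, was higher in GFP- cells than in either GFP positive group and near the same level in those. It read 4.21, 3.86 and 3.98 in PAX3FKHR, 4.21, 3.76 and 3.96 in GFP+ and 4.97, 4.75 and 4.75 in GFP- arrays. The 3 GFP- arrays were the only ones in which it lay above the array's median probe set. The log2 difference was -0.85 ± 0.12 for GFP+ against GFP- and -0.81 ± 0.11 for PAX3FKHR against GFP-, whereas that for PAX3FKHR against GFP+ was 0.04 with an interval of -0.25 to 0.33. Such an interval leaves room for a moderate shift in either direction.

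Myl9, the regulatory light chain of smooth muscle and non-muscle myosin, was lower in the cells with the fusion and level between GFP+ and GFP-. It read 6.41, 6.64 and 6.95 in PAX3FKHR, 7.12, 7.10 and 7.25 in GFP+ and 7.07, 7.07 and 7.22 in GFP- arrays. The PAX3FKHR arrays lay below all others but were spread more widely, with an SD of 0.27 against 0.08 and 0.09. The log2 difference was -0.49 ± 0.12 against GFP+ and -0.45 ± 0.12 against GFP-, and GFP+ against GFP- gave 0.04 ± 0.07. Without PAX3FKHR replicate 3, the highest of its group, these differences were -0.63 and -0.59.

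Actg2, the enteric smooth muscle actin, and Myh11, the smooth muscle myosin heavy chain that marks mature smooth muscle, lay below the median probe set in all 9 arrays. Actg2 read 3.55 to 3.70 over all arrays. The Myh11 probe sets read 4.0 to 4.14 (1418122_at) and 3.07 to 3.67 (1448962_at). The arrays of all 3 groups overlapped, and the largest of their differences, for 1448962_at in PAX3FKHR against GFP-, was -0.22 with an interval of -0.48 to 0.04. A transcript at this signal may be absent or below what the probe sets resolve.

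Cald1, caldesmon, which blocks the actin filament until calcium rises and which in its light form is present in most cells, was bright and nearly level. Its 3 brightest probe sets read 10.45 to 10.84 (1424769_s_at), 9.5 to 10.09 (1424770_at) and 8.04 to 8.94 (1424768_at). Only the last separated PAX3FKHR from GFP+, with 8.55, 8.94 and 8.84 against 8.04, 8.53 and 8.46, a log2 difference of 0.43 ± 0.14, and the gap between the groups was a small part of the range within each. A weaker probe set (1433147_at) was lower in GFP- cells, at 5.45 to 5.69 against 5.79 to 5.93 in both GFP positive groups, and the dimmest (1433146_at) stayed between 4.13 and 4.39. No Cald1 difference reached 0.5 log2 units.

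Tpm2, the beta-tropomyosin of skeletal and smooth muscle, ordered the groups differently, highest in GFP+, intermediate in PAX3FKHR and lowest in GFP- cells on all 4 of its probe sets. The brightest (1419738_a_at) read 9.48, 9.37 and 9.17 in PAX3FKHR, 9.96, 9.72 and 9.78 in GFP+ and 9.04, 8.80 and 8.94 in GFP- arrays. The widest steps were those of 1449577_x_at, which read 6.66, 6.70 and 6.71 in PAX3FKHR, 7.31, 7.50 and 7.55 in GFP+ and 5.73, 5.62 and 5.66 in GFP- arrays. On each of the 4 probe sets the 3 groups did not overlap in any pair.

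The log2 difference of PAX3FKHR against GFP+ ran from -0.76 to -0.48 over the 4 Tpm2 probe sets, so that the signal was 59.0% to 71.9% of that in GFP+ cells. GFP+ against GFP- ran from 0.89 to 1.78, a 1.85-fold to 3.44-fold higher signal. PAX3FKHR against GFP- ran from 0.41 to 1.02. The probe sets agreed in direction in each comparison and differed in size, and 1449577_x_at has an ending that marks probes open to cross-hybridization.

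The probe sets of Tpm1, the alpha-tropomyosin, disagreed among themselves. 1456623_at was highest in the cells with the fusion, at 9.56, 9.69 and 9.63, against 9.37, 9.35 and 9.23 in GFP+ and 8.87, 8.85 and 8.75 in GFP- arrays. Its 3 groups did not overlap. The brightest probe set (1423049_a_at) read 10.12, 10.32 and 10.47 in PAX3FKHR, 10.46, 10.40 and 10.45 in GFP+ and 10.19, 10.15 and 10.20 in GFP- arrays, and 1423721_at read 8.82 to 9.18 over all arrays.

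PAX3FKHR against GFP+ gave a log2 difference of 0.31 ± 0.08 for 1456623_at, -0.13 ± 0.10 for 1423049_a_at and 0.19 ± 0.09 for 1423721_at. Against GFP- cells the same probe sets gave 0.81 ± 0.08, 0.12 ± 0.09 and 0.06 ± 0.08. GFP+ against GFP- gave 0.497, 0.25 and -0.14, so that 1423721_at ran opposite to both others, with an interval of -0.29 to 0.01. The remaining probe set (1447713_at) was dim, at 3.17 to 3.55. Which Tpm1 transcript each probe set reads is not given in the sources used here, so no single direction is stated for this gene.

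**Figure D2:**
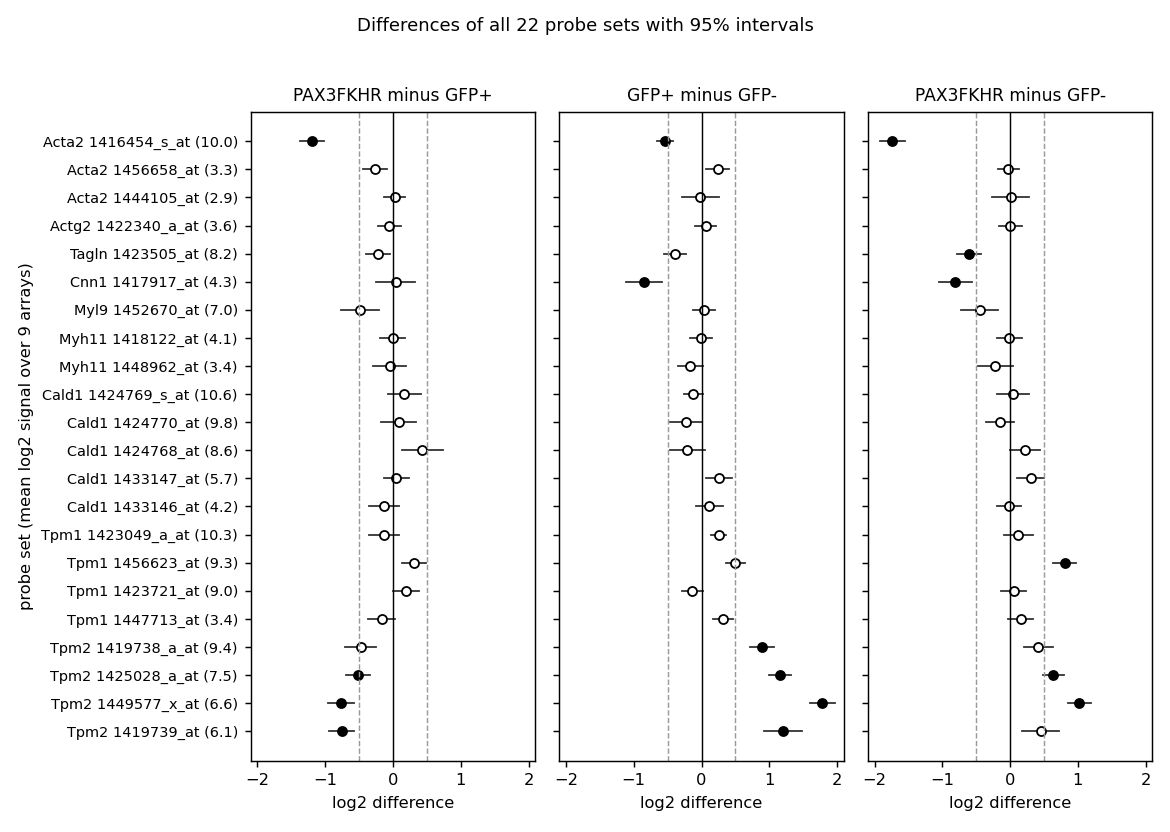
Log2 differences of all 22 probe sets in the 3 comparisons, with 95% intervals from the limma fit, dashed lines at a difference of 0.5 either way, and filled points for probe sets called. Acta2 1416454_s_at lies left of 0 in every panel, and the 4 Tpm2 probe sets change sides together. The points of Tpm1 and Cald1 lie between the dashed lines, apart from Tpm1 1456623_at in PAX3FKHR against GFP-, and several have intervals clear of 0.

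A probe set was called at a Benjamini-Hochberg adjusted p under 0.05 over all probe sets and a log2 difference of at least 0.5, and the comparisons share arrays, so that their calls are not independent of each other. With PAX3FKHR against GFP+, 0 of the 22 probe sets were called higher and 4 lower, namely Acta2 1416454_s_at and 3 of Tpm2. Over all probe sets 0.884% were called higher and 0.473% lower. GFP+ against GFP- had 4 called higher, all of Tpm2, and 2 lower, of Acta2 and Cnn1, where 1.42% and 3.24% of all probe sets were called. PAX3FKHR against GFP- had 3 called higher, 1 of Tpm1 and 2 of Tpm2, and 3 lower, of Acta2, Tagln and Cnn1, where 1.99% and 3.36% of all were called. Nothing is read from these counts, since the members were chosen with such values known.

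Groups did not overlap in 10 of the 22 probe sets for PAX3FKHR against GFP+ (13.1% of all probe sets), in 12 for GFP+ against GFP- (23% of all) and in 10 for PAX3FKHR against GFP- (21.5% of all). The median log2 difference over the 22 probe sets was -0.09, 0.05 and 0.03 in these comparisons, beside -0.0040, 0.02 and 0.02 over all probe sets. The Acta2 call in GFP+ against GFP- rested on GFP- replicate 1, the highest array, without which the log2 difference was -0.49. The call of Tpm2 1425028_a_at with PAX3-FKHR was lost without PAX3FKHR replicate 2, GFP+ replicate 2 or GFP+ replicate 3, with differences between -0.52 and -0.48.

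A list of 24 other actin, tropomyosin, myosin, calponin and transgelin isoforms, which does not hold every gene of these families, was read from the brightest probe set of each gene. With PAX3FKHR against GFP+, 1 of the 24 rose and 5 fell, beside 1.31% and 0.715% of all 18193 genes. The 5 that fell were muscle isoforms. Acta1, the skeletal actin, fell by 1.55 ± 0.09 log2 units (SE) with an adjusted p = 8.95e-06, and Actc1, the cardiac actin that the myotome also uses, by 0.86 ± 0.09 (adjusted p = 0.000733). Myh3, the embryonic myosin heavy chain, fell by 1.96 ± 0.09, Myh7, the slow and cardiac myosin heavy chain, by 1.64 ± 0.10, and Mylpf, the fast skeletal regulatory light chain, by 1.13 ± 0.09. The skeletal light chain Myl1, listed with the myotome markers and not among the 24, also fell, by 1.29 ± 0.09, and was 1.73 ± 0.09 higher in GFP+ than in GFP- cells.

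Acta1 read 6.83, 6.92 and 7.03 in PAX3FKHR, 8.34, 8.56 and 8.54 in GFP+ and 5.76, 6.0 and 5.82 in GFP- arrays. It shared with Acta2 the lower level in PAX3FKHR than in GFP+ cells but not the order of the remaining groups, since Acta1 was 2.62 log2 units higher in GFP+ than in GFP- cells (adjusted p = 3.49e-08). The cytoplasmic actins Actb and Actg1 gave differences of -0.05 ± 0.10 and -0.01 ± 0.10 with PAX3-FKHR. Tpm3 and Tpm4, the tropomyosins of non-muscle cells, gave -0.01 and -0.03. The isoform that rose was Myl6, an essential light chain of smooth muscle and non-muscle myosin, by 0.71 ± 0.11 (adjusted p = 0.00635).

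Between GFP+ and GFP- cells 3 of the 24 isoforms were higher in GFP+ cells and 4 lower, beside 1.92% and 5.05% of all genes. Higher were Acta1, Mylpf by 2.25 ± 0.17 and Myh3 by 5.41 ± 0.07. Lower were the atrial and embryonic heart isoforms Myl7, by 3.26 ± 0.10 (adjusted p = 1.76e-08), and Myh6, by 3.46 ± 0.10 (adjusted p = 1.22e-08), together with Myh7 by 0.85 ± 0.08 and the neuronal Tagln3 by 0.66 ± 0.08. PAX3FKHR against GFP- gave 4 higher (Acta1, Myl6, Mylpf and Myh3) and 3 lower (Myl7, Myh6 and Myh7), beside 2.63% and 5.2% of all genes. Myh7 read 4.56 to 4.84 in PAX3FKHR, 6.24 to 6.39 in GFP+ and 7.09 to 7.24 in GFP- arrays, the order of groups that Acta2 had.

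**Figure D3:**
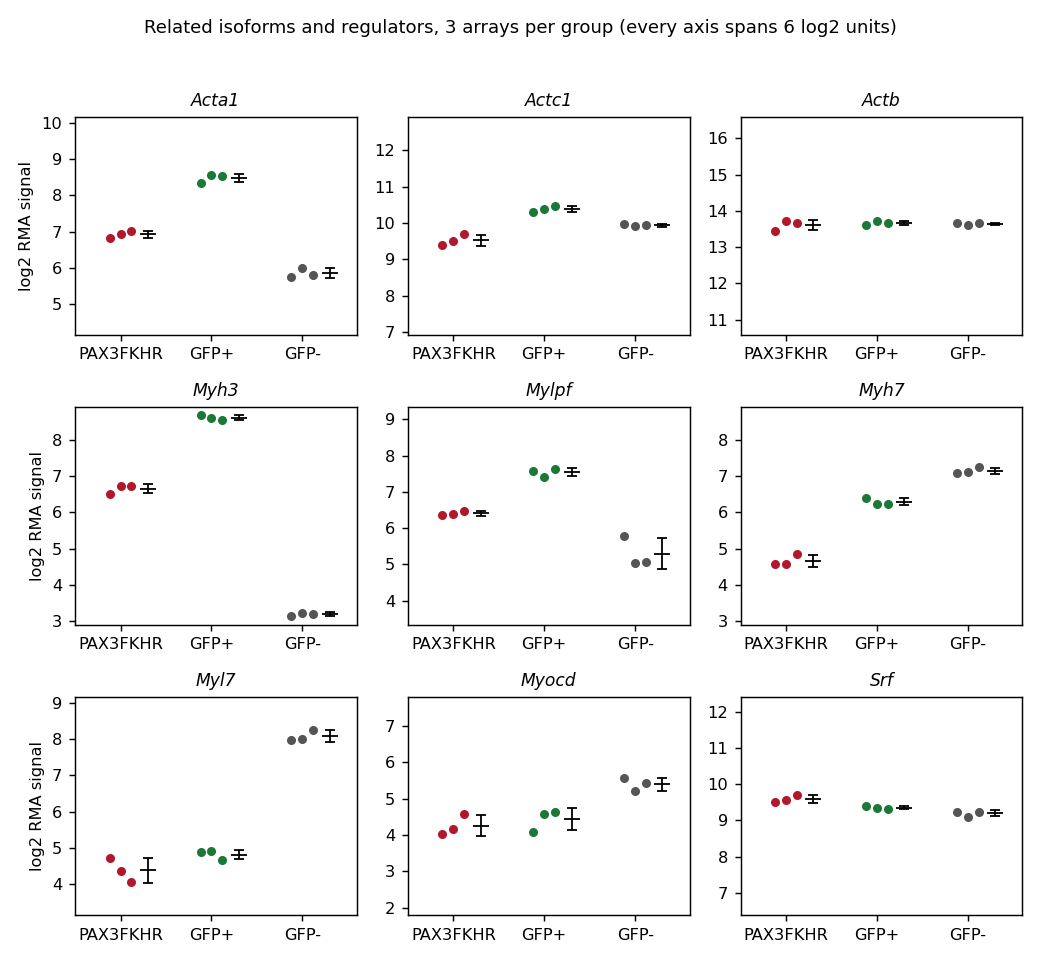
Log2 RMA signal of 9 related genes in every array, by group, with points for arrays and bars for mean ± SD (n = 3), every axis spanning the same range of log2 units. Acta1, Myh3 and Mylpf peak in GFP+ arrays, Myl7 and Myocd stand highest in GFP- arrays, and Myh7 steps down from GFP- to PAX3FKHR. Actb is nearly level, and Srf steps up slightly from GFP- to PAX3FKHR.

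Regulators of smooth muscle genes formed a second list, of which 27 were measured. Myocd, which encodes myocardin, read 4.04, 4.15 and 4.59 in PAX3FKHR, 4.09, 4.58 and 4.63 in GFP+ and 5.56, 5.21 and 5.44 in GFP- arrays. It was lower in both GFP positive groups, by 0.97 ± 0.15 in GFP+ cells (adjusted p = 0.00226) and by 1.14 ± 0.14 in PAX3FKHR cells (adjusted p = 0.000306), whereas PAX3FKHR against GFP+ gave -0.17 ± 0.17 (adjusted p = 0.829). In every GFP positive array Myocd lay below the median probe set, so that a change between these 2 groups could go unresolved.

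Srf, serum response factor itself, was bright, at 9.5 to 9.70 in PAX3FKHR, 9.31 to 9.39 in GFP+ and 9.10 to 9.25 in GFP- arrays. The groups did not overlap and had the reverse of the Acta2 order, with small steps. Its log2 difference was 0.24 ± 0.08 for PAX3FKHR against GFP+, 0.15 ± 0.06 for GFP+ against GFP- and 0.40 ± 0.08 for PAX3FKHR against GFP-. The last had an adjusted p = 0.0101 but lay below the limit of 0.5, so that Srf was not called in any comparison. Its actin-sensing coactivators Mrtfa and Mrtfb gave differences of -0.03 ± 0.11 and -0.21 ± 0.12 with PAX3-FKHR and were not called either. With PAX3FKHR against GFP+, 2 of the 27 regulators rose and 3 fell, beside 1.31% and 0.715% of all genes. Klf4, a factor known to hold smooth muscle genes down, rose by 1.19 ± 0.09 (adjusted p = 7.03e-05), with 9.11, 9.34 and 9.43 in PAX3FKHR against 8.09, 8.09 and 8.14 in GFP+ arrays. Prrx1, a mesenchymal homeobox gene, rose by 0.65 ± 0.11. Mef2c, a muscle factor related to Srf, fell by 0.61 ± 0.08 (adjusted p = 0.00284), and the somite forkhead genes Foxc1 and Foxc2 fell by 0.54 ± 0.10 and 0.56 ± 0.10.

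Between GFP+ and GFP- cells 4 regulators were higher and 8 lower, beside 1.92% and 5.05% of all genes. The lower ones beside Myocd were Hand2 (-4.51 ± 0.09), Gata6 (-4.22 ± 0.07), Tcf21 (-4.13 ± 0.11), Barx1 (-2.64 ± 0.11), Gata4 (-2.02 ± 0.09), Prrx1 (-1.51 ± 0.06) and the Notch ligand Jag1 (-0.88 ± 0.10), several of which act in lateral mesoderm, heart and gut. The higher ones were Foxc2 (2.52 ± 0.09), the Notch effector Heyl (2.32 ± 0.11), Foxc1 (1.70 ± 0.09) and Mef2c (1.13 ± 0.06). PAX3FKHR against GFP- had the same 8 lower and 7 higher, beside 5.2% and 2.63% of all genes. The higher ones were Heyl (2.02), Foxc2 (1.96), Foxc1 (1.16), Klf4 (0.90), Foxo4 (0.84), Hey1 (0.55) and Mef2c (0.53).

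Other contractile and cytoskeletal genes of smooth muscle formed the last list, with 33 measured. With PAX3FKHR against GFP+, 2 rose and 1 fell, beside the same 1.31% and 0.715% of all genes. Npnt, nephronectin, a matrix ligand of integrin alpha 8, rose by 1.46 ± 0.10 (adjusted p = 2.57e-05), and Csrp1, a LIM protein of the actin cytoskeleton, rose by 0.62 ± 0.13. Des, desmin, the intermediate filament of muscle cells, fell by 0.61 ± 0.10 (adjusted p = 0.00798). The remaining 30 were not called, including smoothelin (Smtn, -0.20 ± 0.11), leiomodin (Lmod1, -0.12 ± 0.12) and myosin light chain kinase (Mylk, 0.14 ± 0.11).

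Between GFP+ and GFP- cells 1 of these 33 was higher, Palld by 0.53 ± 0.07, and 6 were lower, beside 1.92% and 5.05% of all genes. The lower ones were Npnt (-2.66 ± 0.08), integrin alpha 8 (Itga8, -1.40 ± 0.09), Mylk (-0.79 ± 0.10), Pdlim3 (-0.67 ± 0.09), caveolin (Cav1, -0.53 ± 0.11) and the myosin phosphatase inhibitor Ppp1r14a (-0.53 ± 0.12). PAX3FKHR against GFP- had Csrp1 higher by 0.53 ± 0.12 and 7 lower, beside 2.63% and 5.2% of all genes, the largest falls being Itga8 (-1.68), Npnt (-1.20), Pdlim3 (-1.02), Hspb1 (-0.83), Fhl1 (-0.82) and Mylk (-0.64). Over the 3 lists together, 14 of 84 genes were called with PAX3FKHR against GFP+, and 8 were called when PAX3FKHR replicate 2, GFP+ replicate 2 or GFP+ replicate 3 was left out.

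The marker genes of other cell types moved with some of these results. The summed signals of blood, heart, lateral mesoderm and endothelial markers were highest in GFP- cells, where Acta2, Tagln, Cnn1 and Myocd were high. The summed linear signal of 5 heart markers was 647 to 728 in GFP-, 271 to 326 in GFP+ and 167 to 173 in PAX3FKHR arrays, with 3 of the 5 called lower in GFP+ than in GFP- cells. That of 6 lateral mesoderm markers was 1265 to 1385, 161 to 165 and 167 to 170 in the same order, with 4 of 6 called, and that of 6 endothelial markers was 651 to 709, 420 to 458 and 413 to 448, with 4 of 6 called. With PAX3FKHR against GFP+, 1 of the 5 heart markers fell, Tnnt2, a troponin also used by embryonic skeletal muscle, by 1.19 ± 0.10. Tnnt2 was the brightest heart marker in both GFP positive groups. Unlike the heart markers called, it stood higher in GFP+ than in GFP- cells, by 0.43 ± 0.12, and was not called there. Of the defining markers, the heart gene Nppa and the endothelial gene Pecam1 lay at 3.09 to 3.44 and 3.78 to 4.20, below the median probe set in every group. The part of these cell types in the Acta2, Tagln and Cnn1 levels was not tested.

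The 3 blood markers, all called lower in GFP+ than in GFP- cells, summed to 23509 to 24392 in GFP- arrays and to 679 or less in all others. The 6 markers of mural cells, which wrap vessels and use Acta2, summed to 1279 to 1408 in GFP-, 1462 to 1541 in GFP+ and 1207 to 1423 in PAX3FKHR arrays. Of these 6, 0 were called higher and 2 lower (Rgs5 and Abcc9) with PAX3FKHR against GFP+. With GFP+ against GFP-, 1 was higher (Pdgfrb) and 1 lower (Rgs5). Pdgfrb, the brightest of the 6, was higher in GFP+ than in GFP- cells by 0.57 ± 0.08 (adjusted p = 0.00118). Rgs5, a pericyte gene, read 7.0 to 7.03 in GFP-, 4.56 to 4.73 in GFP+ and 4.03 to 4.12 in PAX3FKHR arrays. It fell by 0.60 ± 0.09 with PAX3-FKHR (adjusted p = 0.00584). The part of mural cells in the Acta2 levels was not tested.

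Myotome markers, 3 of which are also among the isoforms above (Acta1, Actc1 and Myh3), moved with Tpm2 where GFP+ cells were compared with either other group. The 7 of them summed to 2796 to 3083 in GFP+, 1164 to 1364 in PAX3FKHR and 1122 to 1170 in GFP- arrays, and all 7 fell with PAX3FKHR against GFP+, with a median log2 difference of -1.29. All 7 were therefore lower in the 1 comparison in which Acta2, Myl9 and Tpm2 all stood lower, and their part in these differences was not tested. The study reports Myog and muscle genes such as myosins and troponins as lowered by the fusion. In that comparison the myotome markers therefore cannot be read as a share of myotome cells. Between GFP+ and GFP- cells 6 of the 7 were higher in GFP+ cells, the direction of Tpm2 and the reverse of Acta2. The myotome sums of PAX3FKHR and GFP- arrays lay close together, but the bright Actc1, at means of 9.53 and 9.94, weighed most in both. By gene, 4 of the 7 were called higher in PAX3FKHR than in GFP- cells and 0 lower. Of the 3 not called, Actc1 (-0.41 ± 0.09) and Ttn (-0.27 ± 0.10) stood lower and Myl1 (0.44 ± 0.09) higher, each without overlap. The median log2 difference of all 7 was 1.07, and Tpm2 was also higher in PAX3FKHR than in GFP- cells.

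The summed sclerotome markers also moved with Tpm2 and had its order of groups. The 4 of them summed to 1692 to 1807 in GFP+, 1110 to 1303 in PAX3FKHR and 301 to 352 in GFP- arrays, with 2 of 4 called lower with PAX3FKHR against GFP+ and 3 of 4 higher in GFP+ than in GFP- cells. Foxc2, also among the regulators above, was the brightest of the 4. The study describes it together with Pax3 in the dermomyotome too and reports it as lowered by the fusion. The sclerotome sum therefore cannot be read as a share of sclerotome cells with PAX3FKHR against GFP+. Nkx3-2 lay at 3.54 to 3.93, below the median probe set in every array. The 6 dermomyotome markers summed to 1859 to 2138 in PAX3FKHR, 1516 to 1703 in GFP+ and 224 to 232 in GFP- arrays. Of these 6, 3 were called higher and 2 lower with PAX3FKHR against GFP+, the comparison in which Acta2 and Tpm2 stood lower. Pax3 is the altered gene itself, and the study reports Pax7, Lbx1, Met and Dmrt2 as raised and Sim1 as lowered by the fusion. In that comparison these markers therefore cannot be read as a share of dermomyotome cells. The 3 neural crest markers measured summed to 1376 to 1540 in PAX3FKHR, 1157 to 1300 in GFP+ and 398 to 424 in GFP- arrays. Of these, 0 were called with PAX3FKHR against GFP+ and 2 were higher in GFP+ than in GFP- cells. The part of these cell types in the member levels was not tested.

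**Figure D4:**
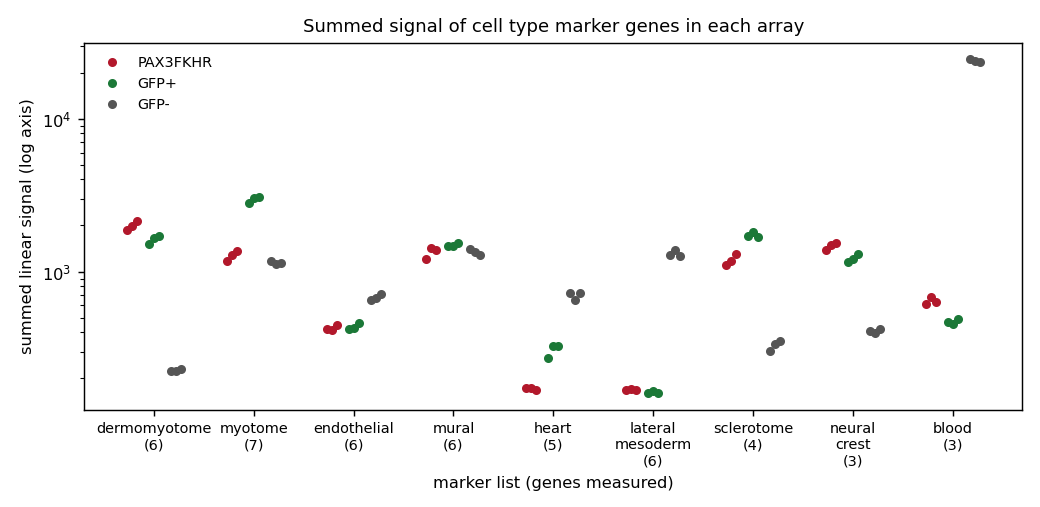
Summed linear signal of the marker genes of 9 cell types in each array, on a log axis, by group, with the number of genes measured in brackets. Heart, lateral mesoderm, endothelial and blood sums stand highest in GFP- arrays, and the myotome and sclerotome sums stand highest in GFP+ arrays.

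The labels were checked with Pax3, which read 9.06 to 9.29 in GFP+ and 4.20 to 4.82 in GFP- arrays, and 8.25 to 8.31 in PAX3FKHR arrays, where neither allele is unmodified. Dermomyotome markers were higher in GFP+ than in GFP- cells for 6 of 6 genes. Within groups the correlation of arrays over all probe sets was 0.996 to 0.998.

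Genes with a pattern like that of the members were ranked by Pearson correlation of log2 signal over the 9 arrays, which reflects mostly the 3 group means and is given without a test. The 5 genes most like Acta2 were Adh1 (r = 0.995), Spon1 (0.989), Hoxb1 (0.988), Myh7 (0.987) and Pltp (0.985), each lowest in PAX3FKHR and highest in GFP- cells. Among the members themselves Tagln came closest to Acta2 (r = 0.884), followed by Myl9 (0.774) and Cnn1 (0.661), while Tpm2 gave -0.240. The gene most like Tagln was Gsc, most like Cnn1 was Ptpn3 and most like Myl9 was Gnas, with r of 0.991, 0.981 and 0.972. The gene most like Tpm2 was Fgf6 (r = 0.988), most like Tpm1 was Bmi1 (0.970) and most like Cald1 was Slc38a2 (0.986). For the dim Actg2 and Myh11 these were Cndp1 (0.938) and Dpy19l2 (0.951). Gsc and Fgf6 were dim too, with group means of 3.07 to 3.49 and 3.75 to 4.54, below the lowest array median of 4.63. Ptpn3 lay below that median in both GFP positive groups, at means of 4.36 and 4.37.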

How the data were processed

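Per the labels, total RNA of sorted cells was amplified with a two-cycle 3′ system and hybridized to Affymetrix arrays. The authors deposited log2 values made with RMA, which corrects background, adjusts array distributions to each other and summarizes each probe set, so that a change common to all transcripts would be hidden. The methods name biological triplicates and discard probe sets called absent, a filter not applied here. Of 45101 probe sets 64 controls were left out. The number of arrays limits precision. Differences were tested two-sided with limma 3.58.1 in R 4.3.3 (lmFit, eBayes with an intensity trend) on the 6 arrays of each comparison. Benjamini-Hochberg adjustment ran over 45037 probe sets. Calls needed an adjusted p under 0.05 and a log2 difference of at least 0.5, both limits given in the study's methods. This log2 limit is 1.41-fold, below the fold threshold that the study prints beside it. Some calls, such as Tpm2 1425028_a_at with PAX3-FKHR (1.43-fold), do not reach that threshold. Fits were checked on simulated data with changes well above the limit, planted in probe sets above the median. That check does not cover changes near the limit or dim probe sets. Genes outside the members were read from the brightest probe set with 1 symbol, and 2 list symbols were matched through older names. Of 86 listed genes 84 were measured here. The members, lists and tests were chosen with earlier results of these data known. The text names all member probe sets, called regulators and isoforms, up to 6 called genes of the last list per direction, Myocd, Srf and their coactivators, and the most alike genes. Alternatives were 1 fit of all arrays, no trend, the study's local pooled error test, a replicate block, median centring, a filter on dim probe sets, no fold limit and leaving out arrays.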

Additional observations from a re-analysis of the deposited data

How the results depend on the processing

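The direction of every called member difference stayed the same under each alternative fitted, and member values moved by less than the spread between replicates, which leaving out 1 of 3 arrays can hardly exceed. Leaving out 1 array gave 358 to 578 probe sets called for PAX3FKHR against GFP+ in place of 611, 8 to 12 genes of the 3 lists in place of 14, and 3 to 5 member probe sets in place of 4. Without the limit on the log2 difference, GFP+ against GFP- had 3947 probe sets called in place of 2095, 41 listed genes in place of 26 and 10 member probe sets in place of 6, and PAX3FKHR against GFP- had 4029 in place of 2411. The Acta2 call in GFP+ against GFP- was also lost in the local pooled error test, which compares medians (-0.49). Replicate numbers were checked for pairing by the correlation of same-numbered arrays' deviations from their group means, which was -0.0957 to 0.105. For GFP+ against GFP- it was 0.094, 0.062 and 0.009. Such low values show no strong pairing but cannot exclude a weak one, and the arrays were treated as unpaired. With a replicate block 603, 2122 and 2451 probe sets were called in the 3 comparisons, and 4, 6 and 6 of the members. Signal near background limits Actg2, Myh11, Cnn1, the dim probe sets of Acta2 and, in GFP positive cells, Myocd.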
